A study of Mus musculus with 14 samples.

Results

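The 8 genes described here, S100a8, S100a9, Lcn2, Csf3r, Trem1, Hdc, Cxcr2 and Retnlg, are markers of neutrophils, and they are 8 of the 21152 genes in the deposited table. They were picked because neutrophil markers were low in the combination group of these same libraries, so every comparison with that group is a description of the choice and carries no test. RNA was sequenced from 14 libraries of tumours formed in mice by LLC1, the mouse Lewis lung carcinoma cell line. The mice received vehicle (DMSO, 4 libraries), MYCi975 at 50 mg/kg (4 libraries), TMP195 at 50 mg/kg (3 libraries) or both compounds (3 libraries, called the combination, doses not given in the sources used here), in each case for 16 days. MYCi975 blocks the transcription factor MYC, whereas TMP195 blocks class IIa histone deacetylases. The design text calls the material a bulk suspension of tumour cells and the protocol an enriched tumour population, and neither gives the mouse strain, sex or age. Nothing in the labels ties a library to an animal of its own, so intervals and p-values measure the spread among these libraries only, and that spread may be technical.

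Neutrophils are short-lived granulocytes made in the bone marrow under the growth factor G-CSF and drawn into tissue through the chemokine receptor CXCR2. Granule proteins are made at successive stages in the marrow, while mature cells in blood and tissue carry cytokine, chemokine and pattern receptors. Tumours often hold neutrophils, which can promote or restrain their growth. Of the 8 genes, 4 encode secreted or released proteins. S100a8 and S100a9 encode the subunits of calprotectin, a calcium- and zinc-binding complex of the neutrophil cytosol. Lcn2 encodes lipocalin 2, which binds bacterial siderophores, and Retnlg encodes a resistin-like protein found in mouse granulocytes. Receptors are encoded by Csf3r (the G-CSF receptor), Cxcr2 (the receptor of neutrophil-attracting CXC chemokines) and Trem1 (an activating receptor that signals through the adaptor TYROBP). Hdc encodes histidine decarboxylase, which makes histamine and is also a gene of mast cells and basophils. Several of the genes are not limited to neutrophils, since monocytes can express S100a8, S100a9 and Trem1 and epithelial cells can express Lcn2. In a bulk tumour fewer neutrophils and less RNA per neutrophil cannot be told apart.

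The promoters of 5 members are shown as examples that hold the letters bound by C/EBP or PU.1 factors, which drive granulocyte genes. Those of Trem1 and Cxcr2 also hold PU.1 letters and are not shown. Each sequence is the 250 bases before the RefSeq start, in GRCm38.p6, read 5′ to 3′ on the gene's own strand, with matches in capitals. All 8 members had a promoter in the RefSeq table. The build behind the deposited values is not settled, so these coordinates belong to the RefSeq sequences alone.
S100a8 (chr3:90668821-90669070, plus strand): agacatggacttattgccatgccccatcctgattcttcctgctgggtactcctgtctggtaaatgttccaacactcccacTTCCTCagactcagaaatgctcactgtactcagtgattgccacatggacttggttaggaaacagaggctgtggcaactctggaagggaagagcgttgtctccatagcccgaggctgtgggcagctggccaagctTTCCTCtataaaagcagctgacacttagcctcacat
S100a9 (chr3:90695722-90695971, minus strand): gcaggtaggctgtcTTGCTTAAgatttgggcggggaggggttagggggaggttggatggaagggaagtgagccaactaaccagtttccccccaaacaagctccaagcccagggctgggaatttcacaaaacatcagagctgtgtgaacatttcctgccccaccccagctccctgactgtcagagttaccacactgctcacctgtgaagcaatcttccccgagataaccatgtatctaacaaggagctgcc
Lcn2 (chr2:32387740-32387989, minus strand): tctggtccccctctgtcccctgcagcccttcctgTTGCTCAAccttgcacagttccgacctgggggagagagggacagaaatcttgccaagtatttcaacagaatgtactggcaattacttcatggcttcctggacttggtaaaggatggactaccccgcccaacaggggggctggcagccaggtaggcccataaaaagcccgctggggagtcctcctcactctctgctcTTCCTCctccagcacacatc
Retnlg (chr16:48872358-48872607, plus strand): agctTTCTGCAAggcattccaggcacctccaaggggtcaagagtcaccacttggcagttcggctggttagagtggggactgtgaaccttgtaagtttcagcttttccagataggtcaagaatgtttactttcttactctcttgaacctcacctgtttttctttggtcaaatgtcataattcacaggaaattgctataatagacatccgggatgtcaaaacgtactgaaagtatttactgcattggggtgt
Csf3r (chr4:126024409-126024658, plus strand): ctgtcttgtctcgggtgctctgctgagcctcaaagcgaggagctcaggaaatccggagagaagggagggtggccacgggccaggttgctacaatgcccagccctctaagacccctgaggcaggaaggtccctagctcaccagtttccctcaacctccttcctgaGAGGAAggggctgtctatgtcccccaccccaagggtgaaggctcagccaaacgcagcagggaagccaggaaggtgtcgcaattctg

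The C/EBP letters searched were TTGCNNAA and, for the other strand, TTNNGCAA, and the PU.1 letters were GAGGAA and TTCCTC. No C/EBP match overlapped a PU.1 match in the members. C/EBP letters lay in 3 of the 8 members, at 236 bases before the start in S100a9, 216 in Lcn2 and 246 in Retnlg, and in 9.56% of 32851 RefSeq promoters of the same length. PU.1 letters lay in 5 of the 8, namely S100a8 (at 170 and 36 bases), Lcn2 (20), Csf3r (86), Trem1 (162) and Cxcr2 (81), and in 23.3% of all promoters. Hdc held neither in this window. All 3 C/EBP matches fell in genes of released proteins, and the receptor genes Csf3r, Trem1 and Cxcr2 held PU.1 letters alone. A match is a match of letters and not a bound site.

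Values are variance-stabilised expression on a log2 scale with a shared lowest value, or floor, of 4.05, and levels are compared within a gene only, since they are not scaled to gene length. The values give no read depth. Between 880 (vehicle replicate 1) and 2954 genes (MYCi975 replicate 2) sat at the floor in a library. MYCi975 replicate 2 stands apart: it was the highest library for 7 of the 8 members, so the members' differences from MYCi975, and the other MYCi975 values that it moves, are also given without it. The lung epithelial markers Nkx2-1 and Sftpc were not found by symbol among the genes of the deposited table, and Epcam lay between the floor and 5.30. The keratin genes Krt8 and Krt18 lay between 7.84 and 8.88 in all libraries, and both had their highest group mean in the combination. Krt18 averaged 8.80 ± 0.10 (SD, n = 3) there against 8.31 ± 0.30 (n = 4) with vehicle, and Krt8 8.48 ± 0.19 against 8.24 ± 0.22. Over 14 libraries Pearson's r with the mean of the 8 genes was -0.79 for Krt18 and -0.75 for Krt8. Of the 5 epithelial genes that passed the filter, 2 had higher and 3 lower means in the combination than with vehicle, with a median difference of -0.06. The genes that define neutrophils showed a partial pattern: all 8 members passed the filter on low values (a mean more than 1 log2 unit above the floor), by 2.18 (Lcn2) to 7.58 (S100a9). Ly6g, the gene of the surface antigen used to sort mouse neutrophils, reached only 5.39 and was at the floor in 1 library.

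S100a9 was 11.43, 11.40, 10.85 and 11.97 in vehicle replicates 1 to 4 and 12.15, 12.999, 11.22 and 12.28 in MYCi975 replicates 1 to 4. It was 11.73, 12.15 and 11.60 with TMP195 and 11.17 or less in the combination (10.96, 11.17 and 10.92). All 3 combination libraries lay below every library of either single agent, and they overlapped vehicle through vehicle replicate 3 alone. S100a8, its partner, was 9.47, 9.13, 8.69 and 9.73 with vehicle and 9.94, 10.52, 9.05 and 9.70 with MYCi975. It was 9.66, 9.99 and 9.03 with TMP195 and 8.79, 8.80 and 9.13 in the combination. For both calprotectin genes vehicle replicate 3 was the lowest of all 14 libraries, lower than any combination library.

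Lcn2 was 6.39, 6.23, 5.39 and 6.03 with vehicle, 6.58, 6.84, 6.32 and 6.49 with MYCi975, and 6.85, 6.69 and 5.66 with TMP195. In the combination it was 5.86, 5.83 and 6.01, inside the vehicle range but below all MYCi975 libraries. The TMP195 libraries were split, with replicate 3 lower than any combination library. Retnlg was 6.81, 6.93, 5.71 and 6.62 with vehicle, 7.08, 7.92, 6.73 and 6.82 with MYCi975, and 7.09, 7.14 and 6.09 with TMP195. In the combination it was 6.25, 6.78 and 6.22, again inside the vehicle range. In all 4 released-protein genes, replicate 3 was the lowest library of the vehicle, the MYCi975 and the TMP195 group, and in 2 of the 4 it was the lowest of the combination.

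Csf3r was 8.51, 8.19, 7.64 and 7.52 with vehicle and 9.06, 10.11, 7.86 and 7.70 with MYCi975. It was 8.36, 8.31 and 7.99 with TMP195 and 7.33, 7.39 and 7.82 in the combination, where every library lay below every TMP195 library. Within MYCi975 the receptor genes fell into high libraries (replicates 1 and 2) and low ones (3 and 4). Cxcr2 showed the same split, at 8.45 and 9.73 against 7.06 and 7.71, with 7.90, 7.90, 7.42 and 7.46 in vehicle. Cxcr2 was 8.18, 8.18 and 7.87 with TMP195 and 7.17, 7.52 and 7.44 in the combination. The G-CSF and chemokine receptor genes were lower in all combination libraries than in all TMP195 libraries, and overlapped vehicle. Among all tested genes 6.36% had all combination libraries below all TMP195 libraries. The members were chosen on the combination, so nothing is read from this separation.

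Trem1 had the narrowest vehicle spread, at 7.61, 7.48, 7.55 and 7.47, and was 8.07, 9.14, 7.34 and 7.49 with MYCi975. It was 7.51, 7.65 and 7.71 with TMP195 and 6.73, 7.08 and 7.06 in the combination. Trem1 was the 1 member whose combination libraries lay below all libraries of all other groups. The share of all tested genes with such a separation was not counted. The members were chosen on the combination, so nothing is read from it. Hdc was 8.41, 7.80, 7.85 and 8.13 with vehicle, 8.78, 10.20, 7.82 and 7.83 with MYCi975, and 8.28, 8.46 and 7.77 with TMP195. In the combination Hdc was 7.44, 7.59 and 7.86, overlapping each other group at its lower end.

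**Figure D1:**
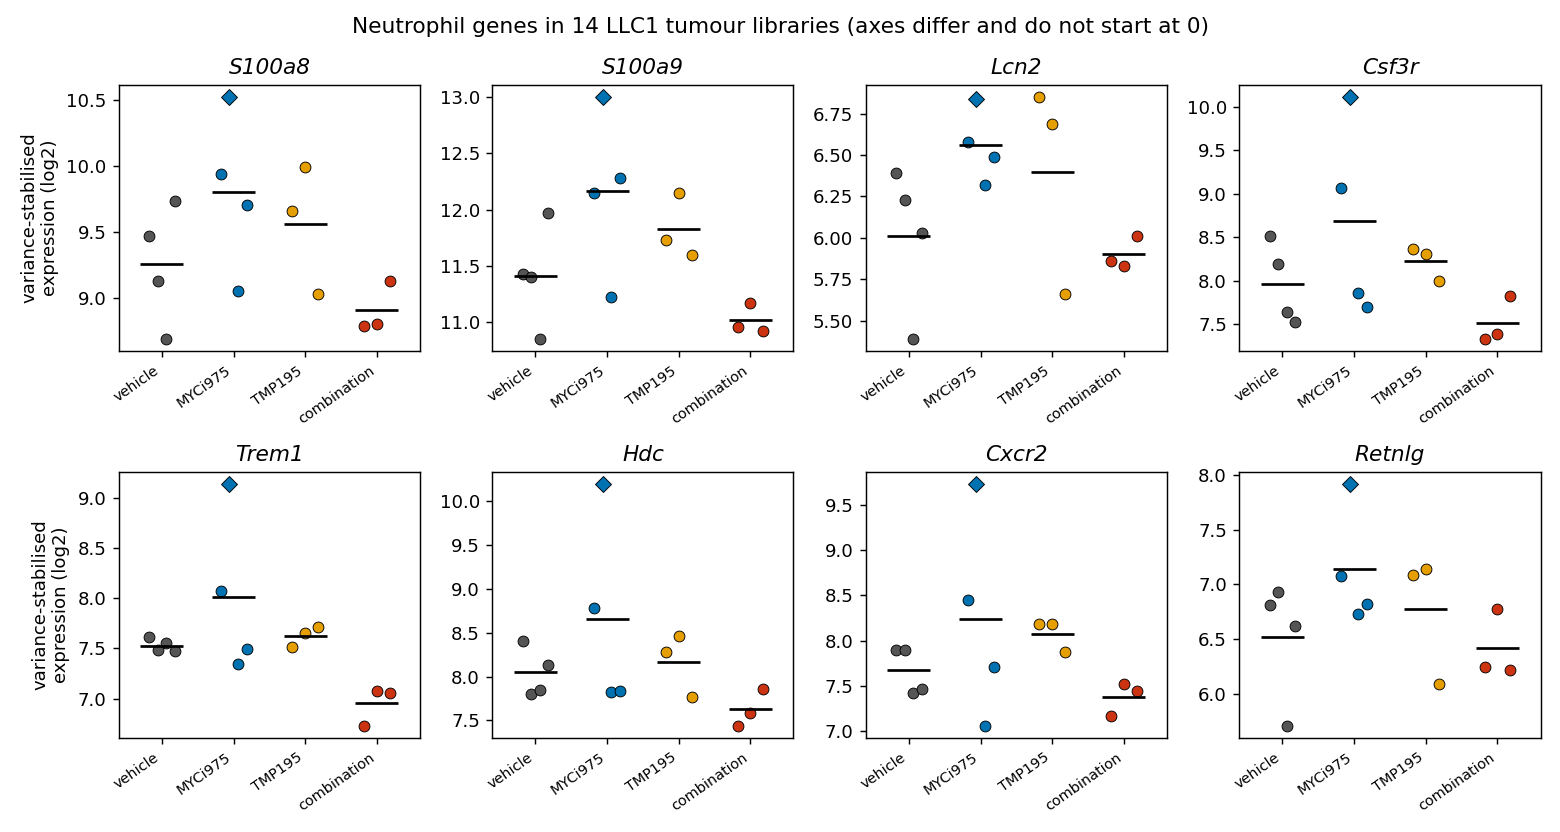
Variance-stabilised expression (log2, vertical axes, which differ between panels and do not start at 0) of the 8 genes in the 4 groups. Points are libraries, horizontal lines group means, and the diamond is MYCi975 replicate 2, which is the highest library for 7 of the 8 genes, with Lcn2 the exception.

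The order of the group means was the same for all 8 genes: MYCi975, then TMP195, vehicle and the combination. TMP195 had the higher mean for Csf3r, Hdc and Cxcr2 once MYCi975 replicate 2 was left out. Neighbours in that order were not separated by their libraries. MYCi975 and TMP195 overlapped for all 8 genes, as did TMP195 and vehicle, and vehicle and the combination overlapped for all but Trem1. The SD was largest in MYCi975 for 6 of the 8 genes and smallest in the combination for 5.

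With MYCi975 the 8 genes had higher means than with vehicle, by 0.48 (Trem1) to 0.75 (S100a9) and with a median of 0.59 on the log2 scale. The median over all 13711 tested genes was 0.007, with 51.7% higher. No member passed limma's test adjusted over all tested genes, and 0% of tested genes were called in this comparison (0 of 13711, smallest adjusted p = 0.999 by limma). S100a9 averaged 12.16 ± 0.73 (SD, n = 4) against 11.41 ± 0.45 (n = 4), a difference of 0.75 with an SE of 0.30 and a 95% interval of 0.12 to 1.38 (limma unadjusted p = 0.023, adjusted p = 0.999). Lcn2 averaged 6.56 ± 0.22 against 6.01 ± 0.44, a difference of 0.55 (95% interval 0.01 to 1.08, limma unadjusted p = 0.046, adjusted p = 0.999). These were the 2 members with an unadjusted p under 0.05, where 3.33% of all tested genes had one and 1.85% had one with a higher mean. The groups overlapped for all 8 members, and 1.03% of tested genes had all MYCi975 libraries above all vehicle libraries. For the other 6 members the 95% intervals included 0. For S100a9 and Lcn2, 3 of 4 MYCi975 libraries exceeded every vehicle library.

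Without MYCi975 replicate 2 all 8 differences from vehicle stayed above 0, but their median was 0.28 and no member had an unadjusted p under 0.05 by limma. The receptor genes and Hdc then differed from vehicle by 0.07 (Cxcr2) to 0.24 (Csf3r), and the released-protein genes by 0.31 (S100a8) to 0.47 (S100a9). Within the other 3 MYCi975 libraries Csf3r averaged 8.21 ± 0.74 (SD, n = 3) and Lcn2 6.46 ± 0.13. MYCi975 replicate 2 also had the highest mean of the 6 pan-leukocyte genes, 1.18 against 0.20 or less in the other MYCi975 libraries (gene-centred log2), and the part this had in the differences was not tested beyond leaving the library out.

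TMP195 also gave higher means than vehicle for all 8 genes, by 0.10 (Trem1) to 0.42 (S100a9) with a median of 0.28, beside 0.004 over all tested genes. No member passed limma's test over all genes, where 0% of genes were called (0 of 13711), and no member had an unadjusted p under 0.05, which 2.78% of genes had. The groups overlapped for all 8 members, and 2.4% of tested genes had all TMP195 libraries above all vehicle libraries. S100a9 averaged 11.83 ± 0.29 (SD, n = 3) and differed from vehicle by 0.42 (95% interval -0.26 to 1.10). Cxcr2, the chemokine receptor, averaged 8.08 ± 0.18 against 7.67 ± 0.27 and differed by 0.41 (95% interval -0.47 to 1.30). The intervals of all 8 members included 0, so neither an increase nor a decrease was resolved. Single libraries moved the median of 0.28: it was 0.13 without vehicle replicate 3, 0.18 without TMP195 replicate 1, 0.15 without TMP195 replicate 2 and 0.52 without TMP195 replicate 3. Hdc (0.12) and Retnlg (0.26) each came out on the other side of 0 when 1 library was left out, Hdc at -0.02 without TMP195 replicate 2 and Retnlg at -0.01 without vehicle replicate 3.

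The single agents were compared with each other at the same dose and duration. MYCi975 exceeded TMP195 in all 8 means, by 0.16 (Lcn2 and Cxcr2) to 0.49 (Hdc), with a median of 0.35. Limma called 0% of genes here (0 of 13711), 4.46% of genes had an unadjusted p under 0.05, and no member did. The groups overlapped for all 8, where 2.47% of tested genes had all MYCi975 libraries above all TMP195 libraries. Without MYCi975 replicate 2 the median was 0.0088, with 5 members higher and 3 lower, and the median was 0.58 without MYCi975 replicate 3 and 0.14 without TMP195 replicate 3. Without MYCi975 replicate 2 Cxcr2 came to -0.34 (95% interval -0.90 to 0.23). The difference between the agents in these genes thus rested on that library, and without TMP195 replicate 3 it was -0.02 for S100a8 and -0.21 for Lcn2. These comparisons share the vehicle or single-agent libraries with each other and are not independent.

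**Figure D2:**
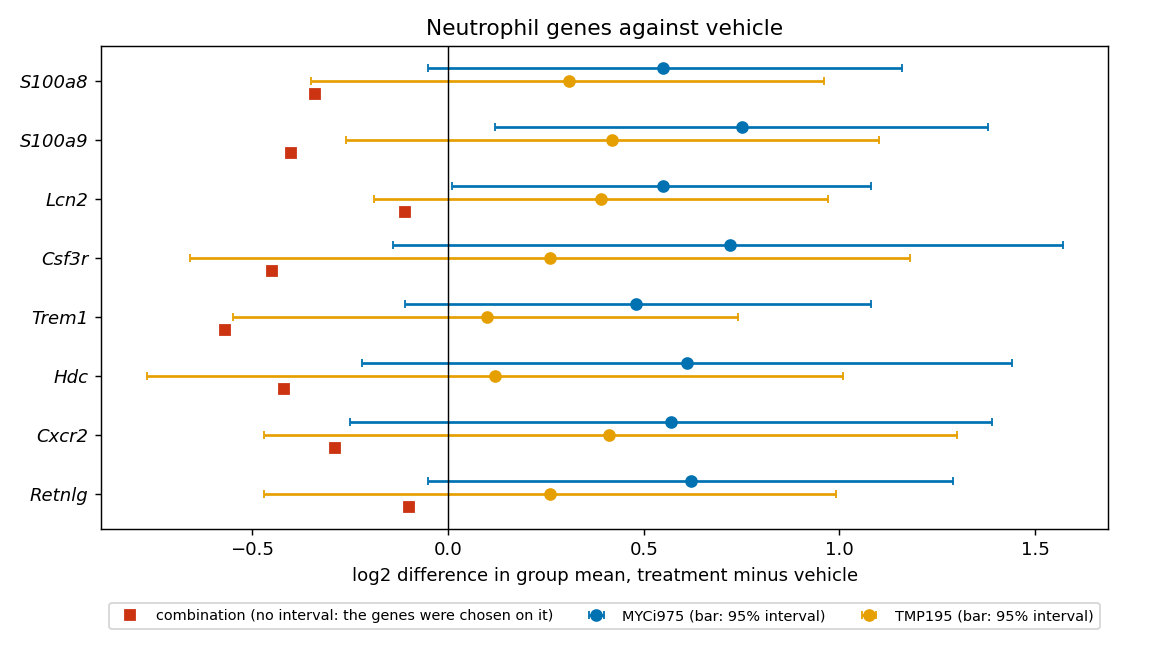
Log2 difference of the group mean from vehicle (horizontal axis) for each gene (vertical axis) with MYCi975, TMP195 and the combination. Bars are 95% intervals from limma, drawn for the single agents alone; all 8 combination means lie below vehicle, from -0.57 (Trem1) to -0.10 (Retnlg), and only the MYCi975 intervals of S100a9 and Lcn2 lie above 0.

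In the combination, the contrast on which the genes were chosen, all 8 means were below vehicle, by -0.57 (Trem1) to -0.10 (Retnlg), with a median of -0.37 beside -0.002 over all tested genes. Trem1 averaged 6.96 ± 0.20 (SD, n = 3) against 7.53 ± 0.06 (n = 4), and Csf3r 7.52 ± 0.27 against 7.96 ± 0.47. S100a9 averaged 11.02 ± 0.14 in the combination, and Lcn2 averaged 5.90 ± 0.10, close to its vehicle mean of 6.01 ± 0.44. The shift was thus not even over the members: Lcn2 (-0.11) and Retnlg (-0.10) came out at 0.02 without vehicle replicate 1 and 0.04 without vehicle replicate 2, respectively. Groups did not overlap for 1 of the 8 members (Trem1), where 3.27% of all tested genes had all combination libraries below all vehicle libraries. Limma called 0% of genes in this comparison (0 of 13711), and 3.43% had an unadjusted p under 0.05.

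Against MYCi975 the combination means were lower by -1.17 (Csf3r) to -0.66 (Lcn2), with a median of -0.96, and S100a9, Lcn2 and Trem1 did not overlap. All combination libraries lay below all MYCi975 libraries for 3.97% of tested genes. Without MYCi975 replicate 2 the median was -0.61. Against TMP195 the combination means were lower by -0.81 (S100a9) to -0.36 (Retnlg), with a median of -0.66. S100a9, Csf3r, Trem1 and Cxcr2 did not overlap there, and 6.36% of tested genes had all combination libraries below all TMP195 libraries. Limma called 0% of genes against either agent (0 of 13711 each), with an unadjusted p under 0.05 for 8.17% of genes against MYCi975 and 4.4% against TMP195. These shares are given as the background, and nothing is read from the members' counts, since the members were chosen on this group.

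Libraries that were high in 1 member were mostly high in the others. Over the 14 libraries with group means subtracted, Pearson's r between members was above 0 for all 28 pairs, with a median of 0.72 and a range from 0.23 (Lcn2 and Trem1) to 0.94 (Trem1 and Cxcr2). The genes share their libraries and their scaling, so r is a description. Csf3r, Trem1, Hdc and Cxcr2 were tightest, at 0.88 to 0.94 among themselves, against 0.52 to 0.89 among S100a8, S100a9, Lcn2 and Retnlg and 0.23 to 0.80 between these sets, which were set apart by role after the values had been seen. Without MYCi975 replicate 2 the medians were 0.76, 0.70 and 0.48, the highest pair was Lcn2 and Retnlg (0.88), and S100a9 and Csf3r came to 0.13.

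The gap between the sets differed among libraries rather than groups. The mean of S100a8, S100a9, Lcn2 and Retnlg minus that of the other 4 genes (each gene centred on its mean over libraries) was 0.57 in MYCi975 replicate 4 and 0.37 in vehicle replicate 4, where the released-protein genes were relatively high. It was -0.79 in MYCi975 replicate 2 and -0.52 in vehicle replicate 3, where the receptor genes were. Group means of this gap ran from -0.07 ± 0.37 (SD, n = 4) with vehicle to 0.12 ± 0.14 (n = 3) in the combination and lay within the spread between libraries.

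**Figure D3:**
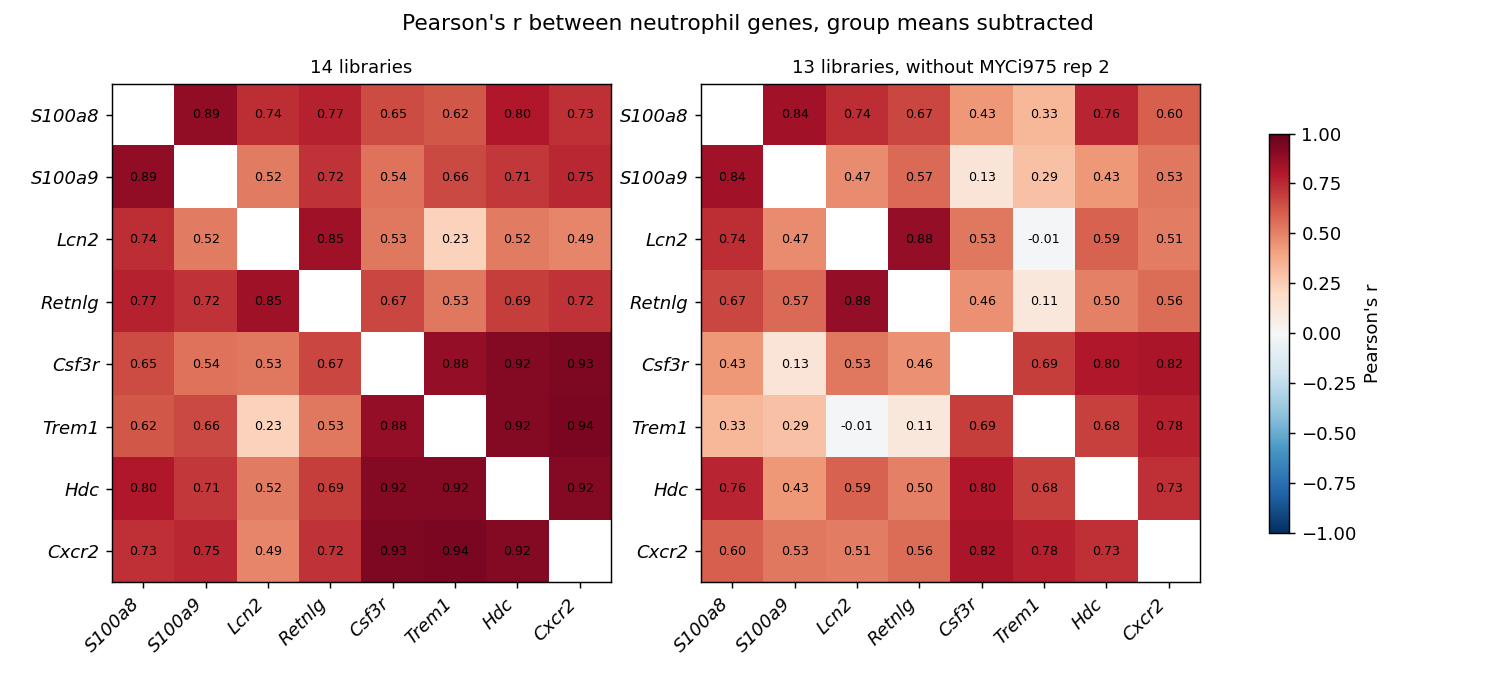
Pearson's r between pairs of the 8 genes over libraries after subtracting group means, with all 14 libraries (left) and 13 (right); colour runs from -1 to 1. The block of Csf3r, Trem1, Hdc and Cxcr2 stays at 0.68 or above on the right, while Lcn2 and Trem1 fall to -0.01.

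The neutrophil genes were set against leukocyte genes as a whole, which were also lowest in the combination. The 6 pan-leukocyte genes, led by Ptprc (the antigen CD45) and Lcp1 (an actin-bundling protein), had gene-centred means of -0.83 to -0.36 in the combination against -0.37 to 0.23 with vehicle. They ran from -0.31 to 1.18 with MYCi975 and from -0.19 to 0.72 with TMP195. Ptprc averaged 10.04 ± 0.36 (SD, n = 3) in the combination and 10.60 ± 0.30 (n = 4) with vehicle, and all 6 genes were lower in mean, with a median difference of -0.52 against -0.37 for the neutrophil genes. The neutrophil mean minus the pan-leukocyte mean of each library was 0.02 ± 0.14 (n = 3) in the combination and -0.16 ± 0.46 (n = 4) with vehicle, and the combination's gaps of -0.07 to 0.18 lay inside the vehicle range of -0.81 to 0.29. The part of leukocyte content in the neutrophil values was not tested further. Lists of other cell types also differed in the combination: against vehicle, all 5 tested endothelial genes were lower in mean (median -0.22) and all 6 tested T and NK cell genes were lower (median -0.41), while 6 of 7 fibroblast genes were higher (median 0.42). Endothelial list means were -0.33 to -0.05 in the combination and -0.01 to 0.18 with vehicle. Over 14 libraries their r with the mean of the 8 genes was 0.73 for endothelial, 0.62 for T and NK cell and -0.09 for fibroblast genes. Without MYCi975 replicate 2 these were 0.53, 0.47 and 0.13. The part of these cell types in the neutrophil values was not tested. With MYCi975 the gap between the neutrophil and pan-leukocyte means was 0.21 ± 0.15 (n = 4), and 0.19 ± 0.17 (n = 3) without replicate 2. With TMP195 it was -0.09 ± 0.76 (n = 3).

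Vehicle replicate 3 and TMP195 replicate 3 departed from this relation, with gaps of -0.81 and -0.96 against -0.10 to 0.43 in the other 12 libraries. Both were rich in macrophage genes, with centred means of the 10 macrophage genes of 0.39 and 0.73. Both were low in the mean of the chosen neutrophil genes, at -0.57 and -0.25. MYCi975 replicate 2 was also rich in macrophage genes, at 0.65, with the chosen neutrophil genes at 1.47. Other neutrophil lists were not low in TMP195 replicate 3. Surface receptors were at 0.49, granulocyte production factors at 0.32, gelatinase granule and late genes at 0.22 and secondary granule genes at 0.08. In vehicle replicate 3 these lists were at 0.01, -0.08, -0.19 and -0.08 in the same order. Over 14 libraries the neutrophil mean had r = 0.70 with the pan-leukocyte mean and 0.35 with the macrophage mean, and without MYCi975 replicate 2 these were 0.38 and -0.11. The 10 macrophage genes, such as Mrc1 and Csf1r, had a median difference of -0.32 between the combination and vehicle, with 7 lower and 3 higher.

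**Figure D4:**
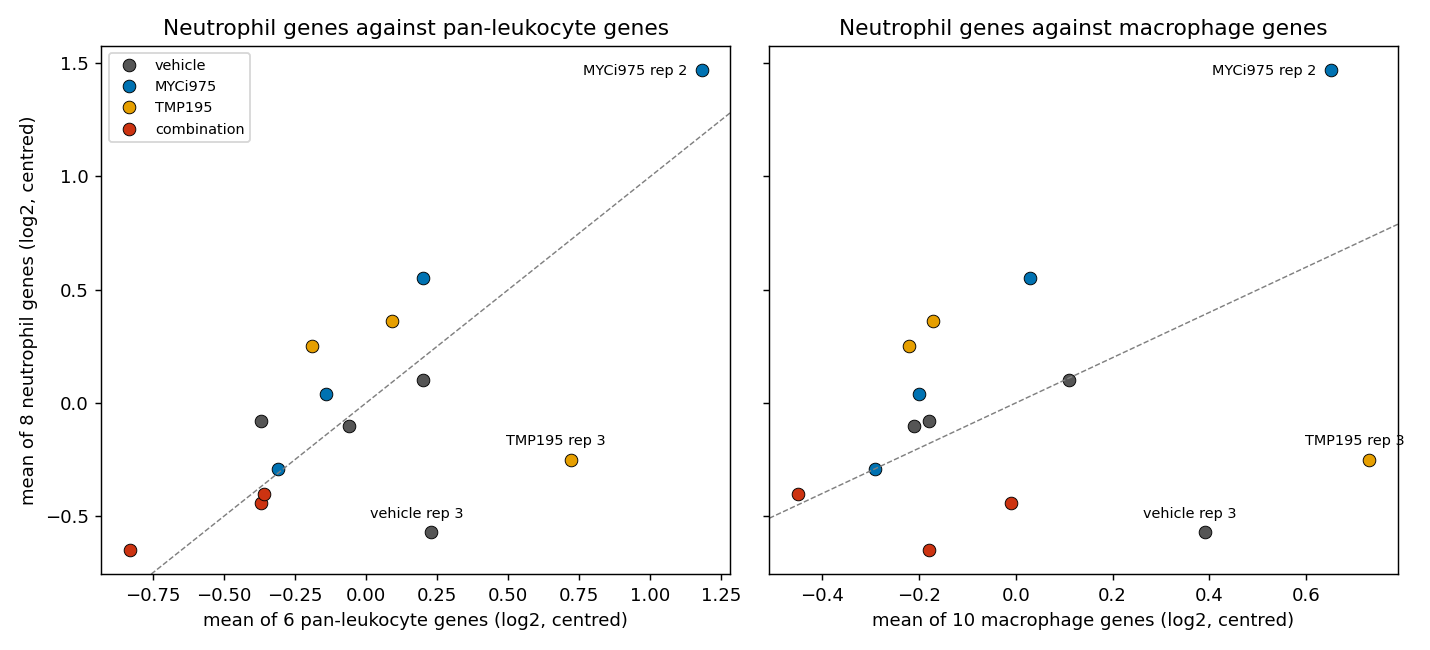
Mean of the 8 neutrophil genes (vertical axis) against the mean of 6 pan-leukocyte genes (left) or 10 macrophage genes (right), as log2 values with each gene centred on its mean over libraries. Points are libraries coloured by group, and the dashed line marks equal values; TMP195 replicate 3 and vehicle replicate 3 lie far below it at -0.25 and -0.57.

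A wider set of 42 neutrophil genes outside the 8 had 39 in the table and 31 that passed the filter. With MYCi975, 28 of the 31 were higher than vehicle and 3 lower, with a median of 0.31, but without MYCi975 replicate 2 there were 14 higher and 17 lower, with a median of -0.02. That direction thus rested on 1 library. With TMP195 27 were higher than vehicle and 4 lower, with a median of 0.20. None of the 31 passed limma's adjusted test between MYCi975, TMP195 and vehicle. With an unadjusted p under 0.05 there were 2 of 31 for MYCi975 against vehicle, where 3.33% of all tested genes had one. There was 1 of 31 for TMP195 against vehicle (2.78% of all genes) and 1 of 31 for MYCi975 against TMP195 (4.46%). As a description of the group on which the 8 genes were chosen, 29 of the 31 had lower means in the combination than with vehicle (median -0.32), and all 31 than with TMP195 (median -0.60). All 31 were lower than with MYCi975 (median -0.68), and 27 were without MYCi975 replicate 2 (median -0.40). Genes that vary together over libraries are not independent of the chosen 8.

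By stage, primary granule genes of marrow precursors were near the floor: Mpo, the myeloperoxidase gene, was at the floor in 8 of 14 libraries and reached 4.77, and Prtn3, a granule protease gene, reached 4.88. Cebpe, the transcription factor of late granule production, lay between the floor and 4.66. Among 6 secondary granule genes measured, Chil3, Cd177 and Olfm4 passed the filter, whereas Ltf (lactoferrin) and Ngp did not and each reached 5.69. Cd177, which encodes a neutrophil surface antigen, reached 6.23. Chil3, a chitinase-like gene also expressed by macrophages and with a close paralogue, was the highest of this list: its mean was 8.66 ± 0.66 (SD, n = 4) under MYCi975 (8.36 ± 0.36 without replicate 2) and 7.85 ± 0.19 (n = 4) in vehicle libraries. It was 7.47 ± 0.41 (n = 3) under TMP195 and 7.23 ± 0.05 (n = 3) in the combination.

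Of the 10 gelatinase granule and late genes 8 passed the filter, and Ly6g and Wfdc21, with means of 4.69 and 4.67, did not. Means of the other 8 ran from 5.72 (Padi4, a histone-citrullinating enzyme) to 11.29 (Itgam). In the vehicle libraries Mmp8, the neutrophil collagenase, averaged 7.38 ± 0.27 (SD, n = 4). Under MYCi975 it averaged 7.88 ± 0.81 (n = 4), under TMP195 7.97 ± 0.37 (n = 3), and in the combination 7.09 ± 0.25 (n = 3). Mmp9, the gelatinase, averaged 7.06 ± 0.24, 7.27 ± 1.04, 7.70 ± 0.44 and 6.97 ± 0.34 in the same order. Itgam, the integrin subunit CD11b shared with monocytes and macrophages, averaged 11.24 ± 0.28, 11.44 ± 0.58, 11.58 ± 0.42 and 10.85 ± 0.28. The MYCi975 means without replicate 2 were 7.62 ± 0.78 for Mmp8, 6.80 ± 0.58 for Mmp9 and 11.15 ± 0.16 for Itgam (n = 3), and those of Mmp9 and Itgam then lay below vehicle. Mmp8 followed the 8 genes in being lowest in the combination, while its highest mean was with TMP195.

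Of the 14 surface receptor genes all 14 were lower in the combination than with vehicle, with a median of -0.48. Clec4e, the receptor Mincle, averaged 8.46 ± 0.32 (SD, n = 3) in the combination against 9.19 ± 0.32 (n = 4) with vehicle. Ptafr, the receptor of platelet-activating factor, averaged 7.26 ± 0.37 against 7.94 ± 0.29. Several of these receptors are shared with monocytes, whose 8 listed genes had a median difference of -0.61, with 6 lower and 2 higher and Ccr2 at 9.14 ± 0.03 in the combination against 9.84 ± 0.39. The part of monocytes in the receptor values was not tested.

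**Figure D5:**
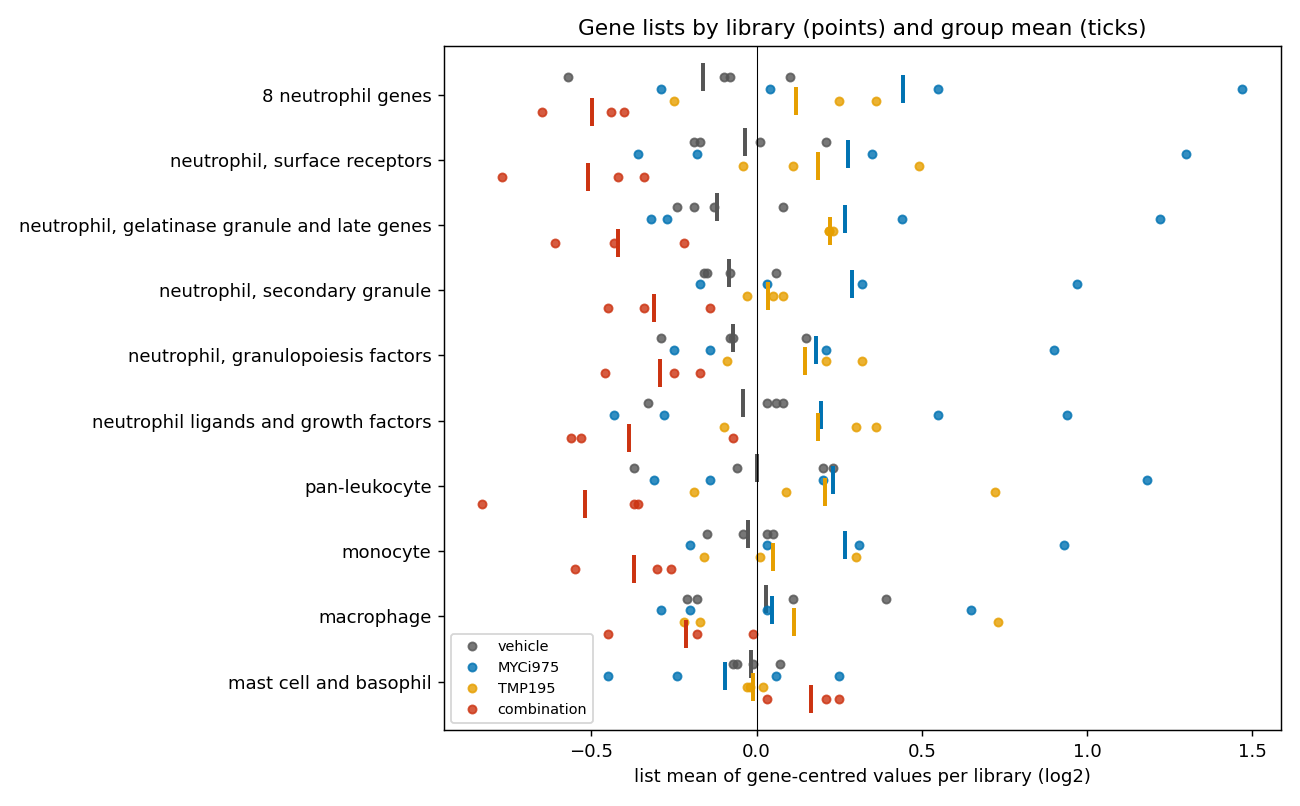
Mean of each gene list per library (points) and per group (ticks), as log2 values with genes centred on their mean over libraries (horizontal axis), for the 8 neutrophil genes and 9 other lists. The combination has the lowest group mean in all lists shown except mast cell and basophil genes, where it has the highest at 0.16.

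Genes of factors that make and attract neutrophils were measured beside them. For Csf3, which encodes G-CSF, the vehicle mean was 5.71 ± 0.14 (SD, n = 4), the MYCi975 mean 5.63 ± 0.24, the TMP195 mean 5.86 ± 0.46 and the combination mean 5.62 ± 0.61. Among CXCR2 ligands, Cxcl2 averaged 10.21 ± 0.40, 10.89 ± 1.37, 10.31 ± 0.17 and 9.55 ± 0.23 in that order, and Cxcl1 averaged 9.39 ± 0.46, 9.26 ± 0.26, 9.61 ± 0.33 and 9.21 ± 0.88. With replicate 2 left out, the MYCi975 means were 10.37 ± 1.09 for Cxcl2 and 9.17 ± 0.23 for Cxcl1. In the combination the Cxcl2 libraries, at 9.32 to 9.79, lay below the lowest vehicle library at 9.85. All combination libraries lay below all vehicle libraries for 3.27% of tested genes, and limma called 0% in that comparison. The vehicle ranges of Cxcl1 and Csf3 lay inside those of the combination. All 9 tested ligand and growth factor genes had lower means in the combination than with vehicle, with a median of -0.32. Among them, Cxcl3 differed by -0.42, Cxcl1 by -0.19 and Csf3 by -0.09. Il1b, an inflammatory cytokine made by myeloid cells including neutrophils, averaged 10.62 ± 0.37 with vehicle and 10.10 ± 0.26 in the combination. Over 14 libraries r with the mean of the 8 genes was 0.88 for both Cxcl2 and Il1b, 0.21 for Cxcl1 and 0.17 for Csf3. For the mean of the ligand and growth factor list r was 0.86, and 0.76 without MYCi975 replicate 2. The r values of these single genes include that library. None of the 9 tested ligand and growth factor genes passed limma's adjusted test between MYCi975, TMP195 and vehicle. An unadjusted p under 0.05 was found for 0 of 9 for either agent against vehicle (3.33% and 2.78% of all tested genes) and for 1 of 9 for MYCi975 against TMP195 (4.46%).

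Partners of the member proteins were also examined. Tyrobp, the adaptor of TREM1, averaged 7.47 ± 0.19 (SD, n = 4) with vehicle and 6.98 ± 0.24 (n = 3) in the combination, and Tlr4, a receptor of calprotectin, averaged 8.40 ± 0.08 and 8.26 ± 0.10. Tyrobp is expressed across myeloid and natural killer cells. All 4 tested partner genes had lower means in the combination than with vehicle (median -0.32). None passed limma's adjusted test between MYCi975, TMP195 and vehicle, and 0 had an unadjusted p under 0.05 there.

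Hdc was set against mast cell and basophil markers, since those cells also express it. Of the 10 markers 5 passed the filter on low values, and the basophil gene Mcpt8 was at the floor in 8 libraries, including all 3 with TMP195. Cpa3, the mast cell carboxypeptidase, averaged 5.16 ± 0.20 (SD, n = 4) with vehicle and 5.72 ± 0.32 (n = 3) in the combination, and Kit, the stem cell factor receptor, averaged 5.75 ± 0.37 and 5.68 ± 0.45. The tested markers had centred means from 0.03 to 0.25 in the combination, from -0.07 to 0.07 with vehicle, from -0.45 to 0.25 with MYCi975 and from -0.03 to 0.02 with TMP195. Their highest group mean was in the combination, where Hdc had its lowest. Over 14 libraries with group means subtracted, the r of Hdc was 0.92 with both Csf3r and Cxcr2 (0.80 and 0.73 without MYCi975 replicate 2). The r of the mast cell and basophil list with the mean of the 8 genes was 0.57 on the same measure and 0.07 without subtraction, where Mcpt8 had 0.67. Leaving out MYCi975 replicate 2, the list had 0.01 without subtraction. The part of mast cells and basophils in the Hdc values was not tested.

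Eosinophil markers were near the floor, with Siglecf reaching 5.25. The genes closest to the mean of the 8 over the 14 libraries were named by their Pearson's r among 11546 other tested genes (no predicted genes, pseudogenes or clone names), as a description of libraries that share their scaling. They were Hcar2 (r = 0.97), Sh2d3c (0.96), Mxd1 (0.96), Il1f9 (0.95), Atp6v1b2 (0.95), Steap4 (0.95), Asprv1 (0.94) and Stfa2l1 (0.94). Hcar2 encodes a receptor of niacin and hydroxybutyrate, Mxd1 a MAX partner that opposes MYC, and Stfa2l1 a stefin of a family with near-identical copies, so its value as a single gene is uncertain. The means of Hcar2 were 7.51 ± 0.32 (SD, n = 4) for vehicle, 8.25 ± 0.97 for MYCi975, 7.82 ± 0.25 for TMP195 and 7.27 ± 0.08 for the combination. Mxd1 averaged 9.56 ± 0.25, 10.23 ± 0.98, 9.93 ± 0.19 and 9.26 ± 0.20 in the same order. Over the other 3 MYCi975 libraries the means were 7.83 ± 0.59 for Hcar2 and 9.79 ± 0.55 for Mxd1, the latter below TMP195. With group means subtracted 5 of these 8 genes were still among the 8 closest, and 6 were without MYCi975 replicate 2. The most opposite genes were Npm3 (r = -0.93), Arhgap6 (-0.88), Adk (-0.87) and Akr1e1 (-0.87), of which Npm3 encodes a nuclear chaperone of the nucleophosmin family and Adk adenosine kinase.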

How the data were processed

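RNA-seq values for 21152 genes in 14 libraries were deposited by the authors as 1 table of variance-stabilised values on a log2 scale, as its name and header give it. Salmon, with no version, and hg38 appear in the submitters' processing notes, although the identifiers are mouse Ensembl gene IDs, and the steps before the transformation were not known here. The lowest value, 4.047, is common to all libraries and depth cannot be recovered, so no count model was used, and differences of genes near this floor are understated. Symbols were found for 20264 IDs (95.8%).

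Genes with a mean over 1 log2 unit above the floor (13711) entered limma 3.58.1 in R 4.3.3, with a mean for each of the 4 groups and moderation along an intensity trend. For each of 6 two-sided comparisons, p-values were adjusted over all tested genes (Benjamini-Hochberg, threshold 0.05). List means average the tested genes, each centred on its mean over libraries. The code was tested on simulated data.

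The 8 members and the gene lists, taken from textbook knowledge, were chosen with earlier results of these data known. Named genes are the members, up to 4 genes of each list with the highest means, and the 8 highest and 4 lowest correlations with the member mean; Cebpe, Csf3, Epcam, Ltf, Ly6g, Mcpt8, Padi4 and Wfdc21 were added after their values were seen. Alternatives were other filters, moderation without a trend, median centring, quantile normalisation, the replicate number as a block, a fit of just the compared groups, and leaving out each library; values of other genes without MYCi975 replicate 2 were added after seeing the data. Promoters come from RefSeq (GRCm38.p6).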

Additional observations from a re-analysis of the deposited data

Results flagged for a closer look

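Of 54 groups of 4 libraries checked for a library far from the rest, 2 passed Dixon's 95% limit, and chance gives about 1 in 20. With vehicle, the mean of the neutrophil ligand and growth factor genes had a gap-to-range ratio of 0.871, because replicate 2 was low. With MYCi975, the mean of the erythroid genes had a ratio of 0.968, because replicate 2 was low.

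For 4 genes every library of 1 pair of groups lay on the opposite side of its reference mean from every library of the other pair. These differences were not tested, since the genes were chosen for being low in the combination. The share of all tested genes with this pattern was not counted, so nothing is read from the number of members that had it. The TMP195 effect with MYCi975 minus that without it was -1.56 for S100a9, -1.43 for Csf3r and -1.27 for Cxcr2 (log2), with TMP195 libraries above the vehicle mean and combination libraries below the MYCi975 mean. For Lcn2 the MYCi975 effect with TMP195 minus that without it was -1.04. Without MYCi975 replicate 2 these values were -1.28 for S100a9, -0.95 for Csf3r, -0.78 for Cxcr2 and -0.95 for Lcn2, so that library moved Csf3r and Cxcr2 by over 1.5 times.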

How the results depend on the processing

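No gene was called in any of the 6 comparisons by limma under any alternative, and the members' median kept its direction in all of them. Leaving out 1 library, the median ran from 0.28 to 0.85 for MYCi975 against vehicle, 0.13 to 0.52 for TMP195 against vehicle, 0.01 to 0.58 for MYCi975 against TMP195, and -0.51 to -0.27, -1.27 to -0.61 and -0.82 to -0.54 for the combination against vehicle, MYCi975 and TMP195. Single members that changed sign ran as follows. For TMP195 against vehicle Hdc ran from -0.02 to 0.32 and Retnlg from -0.01 to 0.60. For MYCi975 against TMP195 S100a8 ran from -0.02 to 0.50, Lcn2 from -0.21 to 0.38, Csf3r from -0.02 to 0.78, Hdc from -0.03 to 0.77 and Cxcr2 from -0.34 to 0.55. For the combination against vehicle Lcn2 ran from -0.32 to 0.02 and Retnlg from -0.37 to 0.04.

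Whether the replicate numbers pair the libraries is not given by the labels and cannot be settled from these values. Deviations correlated above 0.1 in 6 of 19 same-numbered pairs. The median r was 0.036 for same-numbered pairs and -0.004 for other pairs across groups, and 6 of 14 libraries correlated best with their own number. Replicate 3 was the lowest library for S100a8, S100a9, Lcn2 and Retnlg in 3 of the 4 groups. With the replicate number as a block, Trem1 came to -0.00077 and Hdc to -0.0024 for TMP195 against vehicle, 0 genes were called, and the members' medians were 0.59, 0.26, 0.34, -0.35, -1.01 and -0.66 in the order above. Of the 8 genes most like the members, 5 were among the 8 closest without combination replicate 3. Depth is unknown, and 3 or 4 libraries per group limit the precision.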
